A study of Mus musculus with 2 samples.

Results

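The SR splicing factor genes Srsf1, Srsf2, Srsf3, Srsf4, Srsf5, Srsf6, Srsf7, Srsf9, Srsf10 and Srsf11 were taken by symbol, and all 10 were found among the 43346 genes of the deposited gene table. Together they had 67 of the 103639 transcripts of the deposited transcript table. Total RNA of CH12.LX, an established line from a female mouse B cell lymphoma (strain B10.H-2aH-4bp/Wts), was sequenced in 2 libraries, which the labels name biological replicates 1 and 2. They form 1 group with no treatment named, so the study holds no contrast between conditions. Values are therefore given for each library, and the only comparison between samples is library against library, with no test. Nothing in the labels says whether the replicates came from separate cultures, so their spread may be technical.

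SR proteins carry RNA recognition motifs and a domain rich in arginine and serine, which is phosphorylated by SRPK and CLK kinases. They bind exonic sequences in pre-mRNA, recruit U1 and U2 components to splice sites, and several shuttle to the cytoplasm with mRNA. Many SR genes limit their own level by splicing that brings a premature stop codon into the mRNA, often through an ultraconserved "poison" exon. Such mRNA is degraded by nonsense-mediated decay, the pathway that removes transcripts whose stop codon lies well upstream of an exon junction. B cell lines such as CH12.LX are used to study antibody class switching.

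Exon segments of Srsf3, Srsf6, Srsf4 and Srsf11 that carry such stop codons are shown first. The runs of Srsf4 and Srsf11 belong to transcripts that held little of their gene. Each run is the stretch of an exon from its first base to the stop codon in the named transcript, 5′ to 3′ on the transcribed strand, with the stop codon in capitals. The sequences, transcript types and coordinates come from GENCODE M21 on GRCm38 (mm10), the assembly of the files. The Srsf3 run is chr17:29039454-29039487 (plus strand), inside a 456-base cassette exon (an exon that can be included or skipped). The Srsf6 run is chr2:162932815-162932966 (plus strand), inside a 268-base cassette exon. The Srsf4 run is chr4:131884276-131884390 (plus strand), inside a 207-base cassette exon. The Srsf11 run is chr3:158023310-158023359 (minus strand), inside a 117-base cassette exon.
Srsf3-201: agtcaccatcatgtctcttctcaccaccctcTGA
Srsf6-201: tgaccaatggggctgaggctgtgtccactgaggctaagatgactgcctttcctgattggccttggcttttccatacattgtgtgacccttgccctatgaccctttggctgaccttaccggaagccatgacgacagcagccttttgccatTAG
Srsf4-203: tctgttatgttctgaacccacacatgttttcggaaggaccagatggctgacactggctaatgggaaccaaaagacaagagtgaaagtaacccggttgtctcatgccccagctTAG
Srsf11-212: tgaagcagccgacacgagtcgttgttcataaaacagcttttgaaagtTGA

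In Srsf1 the decay transcript adds no exon before its stop codon. Behind that stop codon, Srsf1-204 has an exon that Srsf1-202 lacks, 3604 to 4100 bases from the first base of the gene. Srsf1-204 skips a 187-base exon, enters the last shared segment in another reading frame, and reads past the stop codon that the coding transcript Srsf1-202 uses there. Both runs start at chr11:88049977 (plus strand) and are shown to compare the stop codons, at chr11:88049977-88049999 for Srsf1-202 and chr11:88049977-88050015 for Srsf1-204.
Srsf1-202: acatatctgaagagatggatTAA
Srsf1-204: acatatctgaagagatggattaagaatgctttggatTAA

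**Figure D1:**
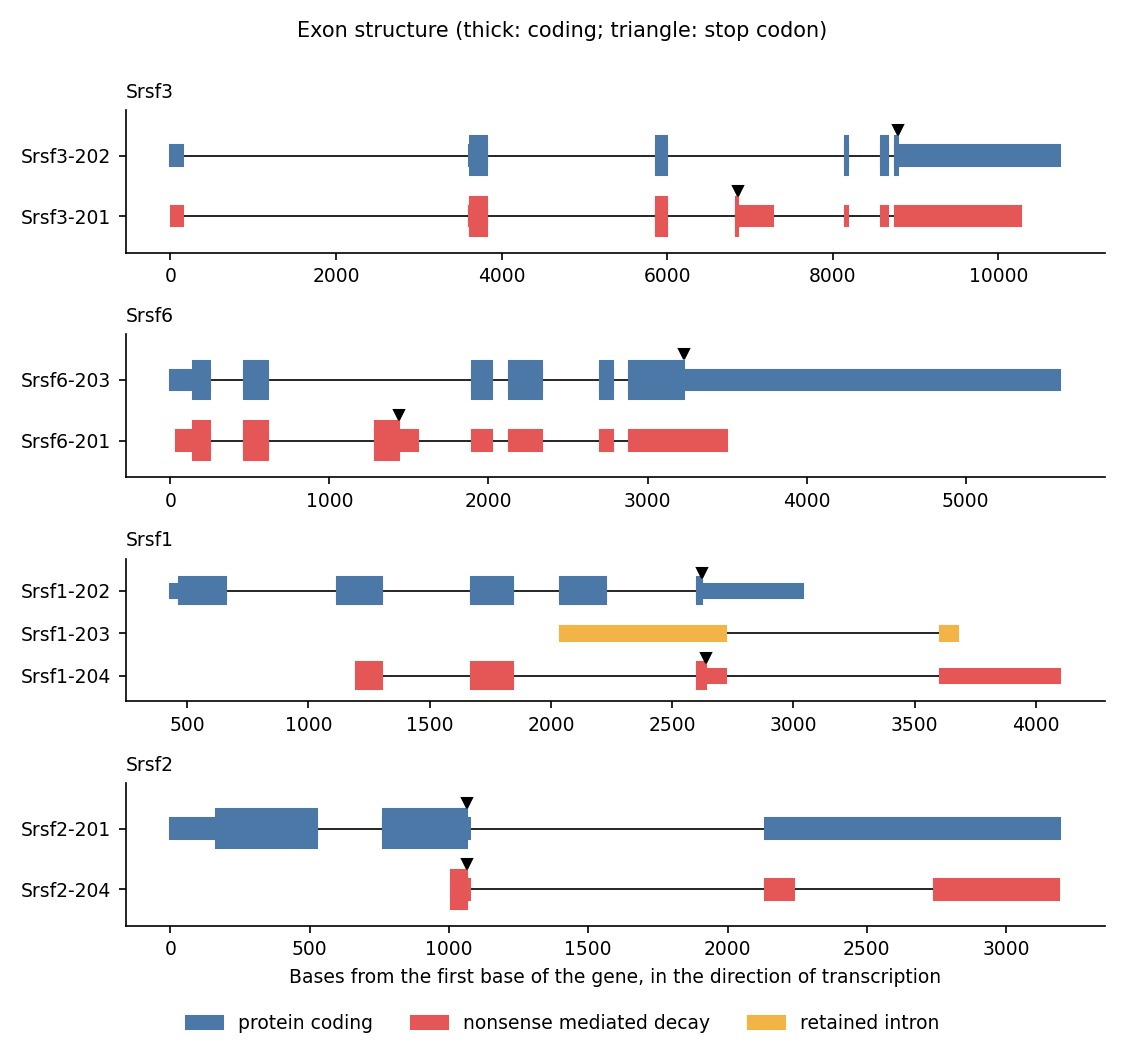
Exon structure of coding transcripts and of the decay or intron-retaining transcripts of Srsf3, Srsf6, Srsf1 and Srsf2, in bases from the first base of the gene; boxes are exons, thick boxes coding sequence, triangles stop codons, and colours the transcript type in GENCODE M21. Srsf3-201 and Srsf6-201 stop inside an added exon, Srsf1-203 runs through the 378-base segment that Srsf1-202 removes, and Srsf2-204 keeps the stop codon and removes 502 bases behind it.

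All 10 genes were expressed in both libraries, and Srsf1 and Srsf2 stood at the top of the family. Levels are in TPM, a unit that divides reads by transcript length and scales every library to the same sum, so that genes can be compared. Srsf1 (ENSMUSG00000018379.13, chr11:88047373-88053755, plus strand), the founding SR protein, which binds purine-rich exonic enhancers, had 153 TPM in replicate 1 and 103 in replicate 2 (128 ± 35.6, SD, n = 2). Srsf2 (ENSMUSG00000034120.14, chr11:116849901-116853094, minus strand), also known as SC35, had 112 and 70.1 TPM (91.3 ± 30.0, SD, n = 2). These genes ranked 265th and 353rd by mean TPM among protein-coding genes, and held 24.6% ± 0.989 and 17.4% ± 1.63 of the summed TPM of the family.

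Srsf3 and Srsf7 encode small SR proteins with a single RNA recognition motif that also serve as mRNA export adaptors. Srsf3 (ENSMUSG00000071172.8, chr17:29032628-29043373, plus strand) had 64.1 TPM in replicate 1 and 43.2 in replicate 2. Srsf7 (ENSMUSG00000024097.10, chr17:80200080-80207307, minus strand), whose protein also has a zinc knuckle, had 40.3 and 29.7 TPM. Srsf3 stood above Srsf7 in each library, and its lower library was above the higher library of Srsf7.

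Srsf4, Srsf5 and Srsf6 encode closely related proteins with a pair of RNA recognition motifs each, and their levels were spread widely. Srsf5 (ENSMUSG00000021134.13, chr12:80945504-80950507, plus strand) had 75.7 and 63.5 TPM in replicates 1 and 2. Srsf6 (ENSMUSG00000016921.10, chr2:162931528-162937121, plus strand) had 37.3 and 24.9 TPM. Srsf4 (ENSMUSG00000028911.12, chr4:131873617-131901706, plus strand), the longest protein of the 3, had 13.1 and 11.3 TPM and was the lowest of all 10 genes. Srsf5 was above Srsf6, and Srsf6 above Srsf4, with no overlap of the libraries' values.

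Of the remaining genes, Srsf11 (ENSMUSG00000055436.14, chr3:158010473-158036639, minus strand), which encodes p54, a protein that binds U2AF, had 57.6 TPM in replicate 1 and 46.2 in replicate 2. Srsf10 (ENSMUSG00000028676.13, chr4:135855747-135869908, plus strand), which encodes SRp38, a splicing repressor when dephosphorylated, had 31.5 and 21.2 TPM. Srsf9 (ENSMUSG00000029538.9, chr5:115327177-115333080, plus strand), which encodes SRp30c, had 20.2 and 17.7 TPM.

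By mean level the order was Srsf1, Srsf2, Srsf5, Srsf3, Srsf11, Srsf7, Srsf6, Srsf10, Srsf9 and Srsf4. Only 3 of the 9 neighbouring pairs in it had values that did not overlap between the genes, namely Srsf11 above Srsf7, Srsf10 above Srsf9, and Srsf9 above Srsf4. In replicate 1 this order held for all 9 pairs, and in replicate 2 for 8 of the 9. The exception was Srsf3 and Srsf11, with Srsf3 ahead in replicate 1 and Srsf11 ahead in replicate 2.

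**Figure D2:**
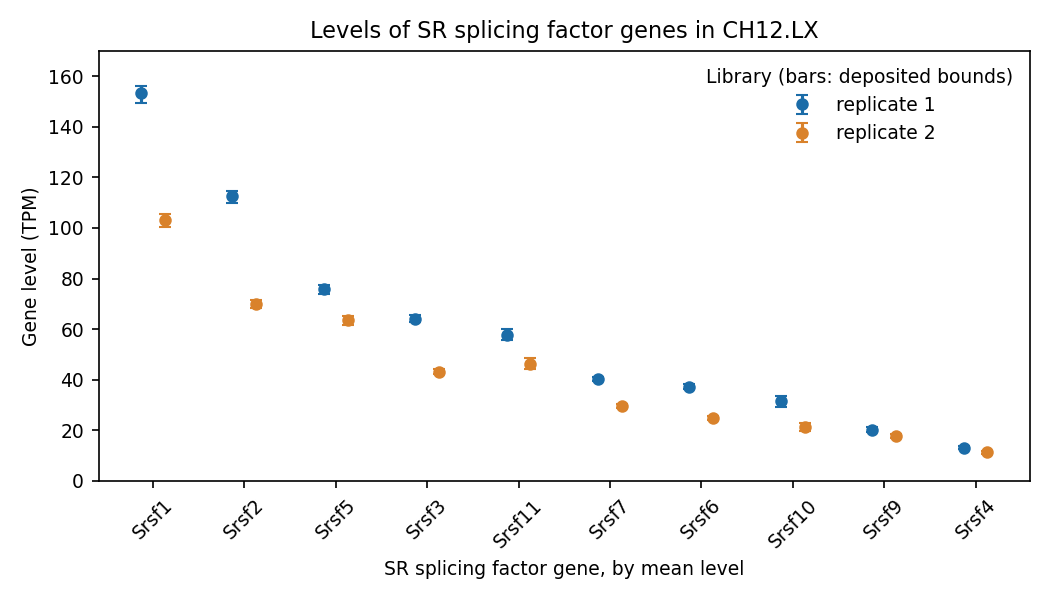
TPM of each SR splicing factor gene in replicate 1 and replicate 2, ordered by mean; points are the deposited values and bars the deposited lower and upper credibility bounds within a library. Srsf1 spans 103 to 153 TPM and Srsf4 11.3 to 13.1, and for every gene the replicate 2 point lies below that of replicate 1.

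Every member was lower in replicate 2. The summed TPM of the family was 606 in replicate 1 and 431 in replicate 2. Its share of the TPM of protein-coding genes was 0.248% and 0.178%. Its expected counts (estimated reads per gene) were 113981 and 87044, although the whole library held more counts in replicate 2, 55950529 against 49278383. On counts scaled between the libraries by TMM (a factor that sets most genes equal), Srsf6 had a log2 ratio of replicate 2 over replicate 1 of -0.61 and Srsf2 of -0.59. These 2 of 10 genes were past 1.5-fold, both lower in replicate 2, and 0 members were past it on the higher side. Among 9851 genes with a mean of at least 1 TPM, 7.47% were past it in either direction, 2.39% lower and 5.09% higher. Among the 3576 genes with a mean of at least 10 TPM, 7.075% were past it in either direction and 3.38% lower. On TPM with a pseudocount of 0.1 or 1, Srsf6 read -0.58 or -0.57 and no longer passed 1.5-fold, which left 1 member, Srsf2. Srsf10 and Srsf1 lay just inside the threshold, both at -0.57, and Srsf3 was at -0.55.

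The other members were closer to equal. Srsf7 had a log2 ratio of -0.42, Srsf11 of -0.34, Srsf5 of -0.27, Srsf4 of -0.20 and Srsf9 of -0.18. The median over the 10 genes was -0.48, and over all 9851 genes it was -0.03, with the 5th percentile at -0.47. A lower value of any size in replicate 2 was seen in 53.6% of all genes. The deposited bounds of a gene did not overlap and were lower in replicate 2 for 10 of 10 members and for 29.6% of all genes. That background was not matched for level: it starts at a mean of 1 TPM, whereas every member had a mean above 10 TPM. Those bounds cover read assignment within a library, not the spread between cultures. In RNA from many cells, fewer cells with a transcript and less of it per cell cannot be told apart. With 1 group of 2 libraries, a difference between cultures and one between library preparations cannot be told apart.

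**Figure D3:**
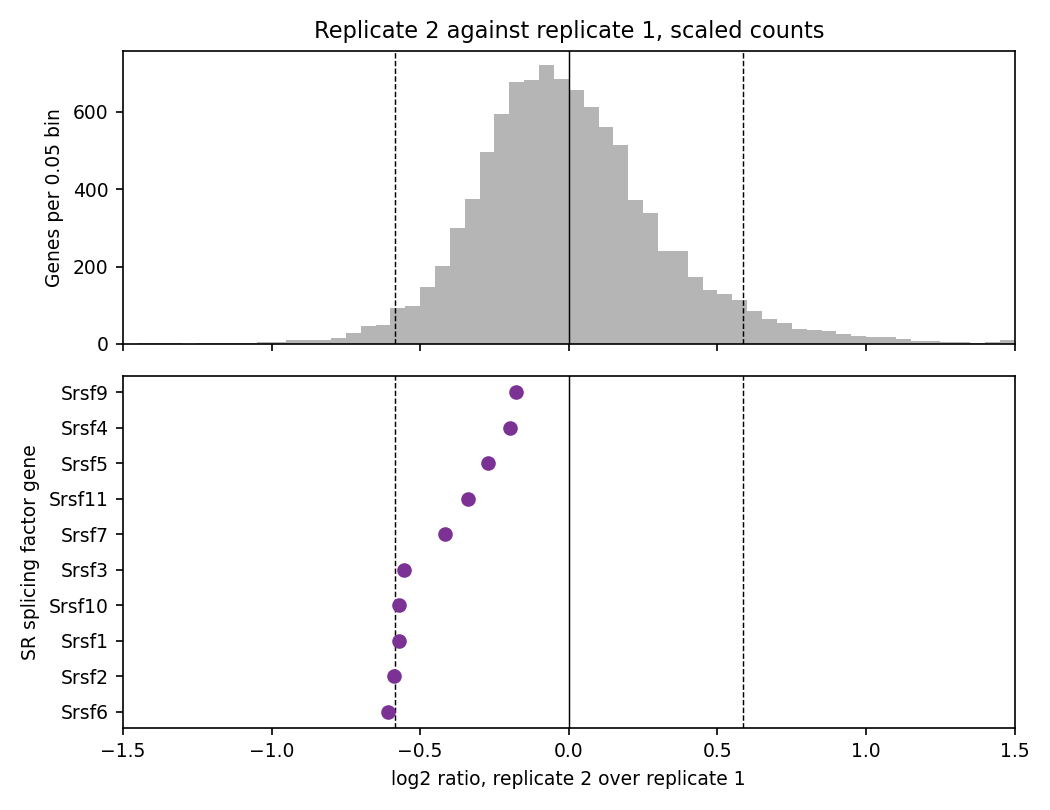
Log2 ratio of replicate 2 over replicate 1 on scaled counts, as genes per 0.05 bin for genes with a mean of at least 1 TPM (top, axis limited to 1.5 each way) and for each SR splicing factor gene (bottom); dashed lines mark 1.5-fold. All 10 points lie left of 0, from -0.61 for Srsf6 to -0.18 for Srsf9.

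By TPM a large part of the SR transcripts was not of the coding type, and by expected counts a smaller part. Any unspliced RNA in the total RNA was not told apart from retained intron transcripts. Of the summed TPM of the family, coding transcripts held 68.1% in replicate 1 and 66.8% in replicate 2. Decay transcripts (the type nonsense-mediated decay) held 9.79% and 8.70%, retained intron transcripts 15.4% and 15.9%, and other noncoding transcripts 6.76% and 8.63%. These shares are estimates of molecules, and short transcripts weigh as much as long ones. Some short transcripts are annotated only in part. The coding sequence of Srsf2-204 has 56 bases and that of Srsf1-204 has 317, neither a whole number of codons. How such partial transcripts affect the TPM shares was not tested. The median length was 1899 bases for coding, 873.5 for decay, 1561.5 for retained intron and 530 for other noncoding transcripts. As shares of expected counts, which follow sequenced reads, coding transcripts held 82.4% and 79.9%, decay transcripts 6.04% and 5.99%, and retained intron transcripts 9.57% and 11.4%.

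Transcripts of decay type were listed for 7 of the 10 genes, the same 7 that had retained intron transcripts: Srsf1, Srsf2, Srsf3, Srsf4, Srsf5, Srsf6 and Srsf11. Decay transcripts held at least 5% of TPM in both libraries in 5 of these 7 genes, against 33.4% of 742 genes with such a transcript and a mean of at least 10 TPM. By expected counts only Srsf3 and Srsf6 did so, 2 of 7, against 27.9% of the 742. Retained intron transcripts held at least 5% of TPM in both libraries in 7 of 7 genes, against 50.4% of 1634 genes, and by expected counts also in 7 of 7, against 34.1%. The median coding share of TPM of the 7 genes was 62.2%, and that of 1748 protein-coding genes with a decay or retained intron transcript was 88.9% (quartiles 69.8% and 96.4%). By expected counts these medians were 80.8% and 94.9%.

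**Figure D4:**
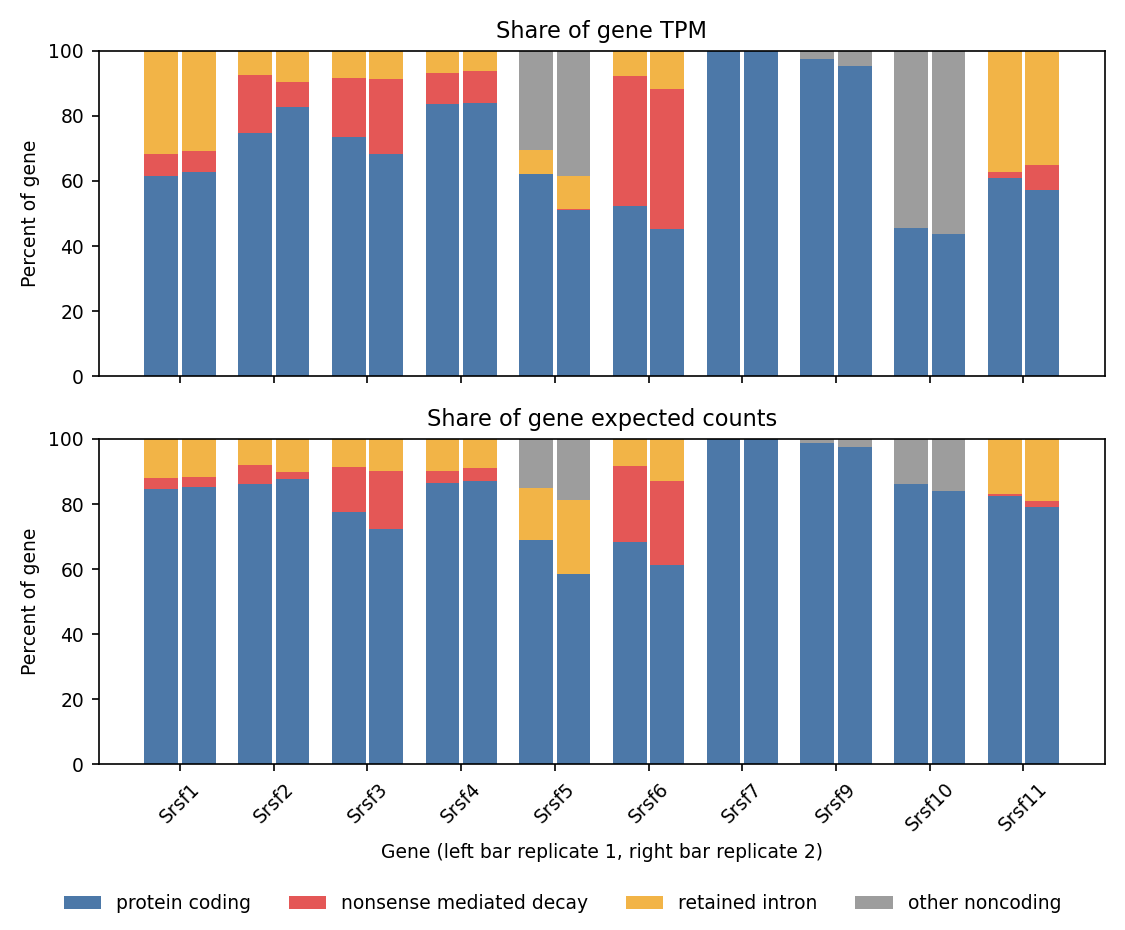
Percent of each gene's TPM (top) and of its expected counts (bottom) held by coding, decay, retained intron and other noncoding transcripts, with replicate 1 as the left and replicate 2 as the right bar of a gene. The decay share is highest in Srsf6, at 40.0% and 43.1% of TPM, and Srsf7 is all coding because a single transcript is listed for it.

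Srsf6 had the largest decay share of the family. Its decay transcript Srsf6-201, with the 268-base cassette exon printed above, had 14.9 TPM in replicate 1 and 10.7 in replicate 2, which was 40.0% and 43.1% of the gene. Its coding transcript Srsf6-203 had 19.5 and 11.2 TPM (52.2% and 45.2%). The coding and the decay transcript were thus of similar level in replicate 2, where their values were 0.51 TPM apart. Srsf6-201 is 1666 bases long and Srsf6-203 is 3527, so by expected counts the decay share was 23.4% and 26.04%. The coding sequence ends after 135 codons in Srsf6-201 and after 339 in Srsf6-203. The retained intron transcript Srsf6-204 held 7.87% and 11.7% of the TPM of the gene.

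Srsf3 came next. Its decay transcript Srsf3-201, which includes the 456-base cassette exon at chr17:29039454-29039909, had 11.7 and 9.99 TPM in replicates 1 and 2. That was 18.2% and 23.2% of the gene by TPM and 14.0% and 17.9% by expected counts. The coding transcript Srsf3-202 had 47.1 and 29.4 TPM, or 73.4% and 68.2% of the gene. The deposited bounds of Srsf3-202 did not overlap between the libraries, whereas those of Srsf3-201 did (10.1 to 12.99 TPM and 8.87 to 11.0 TPM). The stop codon in the cassette exon leaves 124 codons in place of 164.

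In Srsf2 the decay type rests on splicing behind the normal stop codon. The coding transcript Srsf2-201 held 72.9% and 72.6% of the gene in replicates 1 and 2. Srsf2-204, of decay type, removes a 502-base intron (chr11:116850354-116850855) inside the last exon and held 16.7% and 7.64% of TPM. It is 620 bases long, and by expected counts it held 5.13% and 2.21%. It had 18.8 TPM (bounds 16.5 to 20.99) in replicate 1 and 5.35 TPM (bounds 3.92 to 6.86) in replicate 2, so its bounds did not overlap. Of the other 4 transcripts that remove the same intron, 2 had a larger share in replicate 2: the coding transcript Srsf2-206, which adds a 104-base cassette exon, held 1.98% and 10.1%, and the retained intron transcript Srsf2-203 held 7.24% and 9.62%. The bounds of Srsf2-206 overlapped between the libraries. All 5 transcripts without the 502 bases summed to 27.1% and 27.4% of the TPM of the gene. By expected counts they summed to 15.5% and 19.8%, so the sum was close to equal on TPM only. Srsf2-202, typed as decay, and Srsf2-206, typed as coding, contain the same cassette exon and the same 221-codon reading frame, so their annotated types divide transcripts of near-identical structure.

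Srsf1 was spread over 5 transcripts of at least 5% each. Srsf1-202, with 253 codons, held 31.8% of TPM in replicate 1 and 33.9% in replicate 2. Srsf1-203, of retained intron type and 759 bases long, held 30.7% and 28.5% of TPM but 11.8% and 11.0% of expected counts. Srsf1-201, with 201 codons, held 22.9% in each library by TPM and 40.8% and 41.5% by expected counts. Srsf1-205, with 248 codons and a length of 5362 bases, held 6.80% and 6.14% by TPM and 22.6% and 20.8% by expected counts. Srsf1-203, Srsf1-201 and Srsf1-205 all contain the 378-base segment (chr11:88049599-88049976) that is an intron in Srsf1-202. Together they held 59.0% ± 2.01 of TPM (SD, n = 2) and 74.2% ± 1.34 of expected counts. In Srsf1-205 the stop codon lies at the start of that segment, at chr11:88049604-88049606, so the segment is mostly 3′ untranslated there. In Srsf1-201 it lies upstream, at chr11:88049267-88049269. There it is inside another segment of 196 bases (chr11:88049216-88049411) that Srsf1-201 keeps and that is an intron in Srsf1-202. The decay transcript Srsf1-204 held 6.67% and 6.41% of TPM.

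Srsf4 and Srsf5 had smaller decay shares than Srsf6. In Srsf4 the coding transcript Srsf4-202, with 491 codons, held 83.6% and 83.8%, the decay transcript Srsf4-204 7.33% and 6.93%, and the retained intron transcript Srsf4-201 6.72% and 6.11%. Srsf4-204 stops at the same codon as the Srsf4-203 run printed above, but in a 188-base terminal exon and not in a cassette exon. Srsf4-203 itself held 2.36% and 3.12%. In Srsf5 the decay transcript Srsf5-208 held 0.04% and 0.12%, and its bounds reached from near 0 to 0.445 TPM in replicate 1. The coding transcripts Srsf5-201, Srsf5-203 and Srsf5-202 held 36.8% and 31.7%, 13.5% and 8.81%, and 10.9% and 9.08%. Srsf5 also had noncoding transcripts: Srsf5-206, which ends in a 376-base exon inside an intron, held 19.1% and 22.2%, and Srsf5-211 held 11.5% and 16.2%. The retained intron transcript Srsf5-212, which keeps a 1229-base intron (chr12:80947866-80949094), had 4.35 TPM in replicate 1 and 5.71 in replicate 2. It was 1 of 2 member transcripts with bounds that did not overlap and were higher in replicate 2, against 5.49% of 16858 transcripts. The 3 Srsf5 transcripts that keep this intron held 7.35% and 10.3% of the TPM of the gene and 16.1% and 22.8% of its expected counts.

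Srsf11 had the largest retained intron share of TPM, 36.1%, while by expected counts its share of 18.1% was below the 19.4% of Srsf5. The coding transcript Srsf11-202, with 476 codons, held 41.6% of TPM in replicate 1 and 35.1% in replicate 2, and Srsf11-204, with 511 codons, held 16.5% and 17.3%. The retained intron transcripts Srsf11-211 (521 bases), Srsf11-207 and Srsf11-208 held 15.5% and 13.02%, 9.79% and 9.61%, and 4.46% and 6.53%. The decay transcript Srsf11-212, with the 117-base exon printed above, was the other transcript with bounds higher in replicate 2, at 0.19 TPM in replicate 1 and 2.39 in replicate 2. It is 392 bases long, and these values rest on 4.79 and 65.2 expected counts. Srsf11-206, also of decay type, had 0.77 and 1.05 TPM with overlapping bounds.

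Srsf7, Srsf9 and Srsf10 had no decay or retained intron transcript in the deposited table. That table lacks 18 of the 85 transcripts that GENCODE M21 lists for the 10 genes, 3 of decay and 8 of retained intron type. Those of decay type are Srsf3-206, Srsf7-203 and Srsf9-205, so their levels are not known here. For Srsf7 the table lists 1 transcript, Srsf7-201, against 8 in GENCODE M21, so its share cannot be split here. Among the listed transcripts of Srsf9, the coding transcript Srsf9-201 held 97.4% and 95.2%. Srsf10 was the reverse, with 55.4% of TPM in transcripts typed as processed transcript, a noncoding type. Srsf10-209, which is 394 bases long, held 28.8% and 20.6% by TPM, and Srsf10-207 held 19.3% and 28.0%. By expected counts all such transcripts held 14.9% of Srsf10 and coding transcripts 85.1%. The coding transcripts Srsf10-204, Srsf10-205, Srsf10-203 and Srsf10-202 held 22.0% and 22.9%, 9.81% and 7.86%, 8.45% and 7.51%, and 5.21% and 5.36% of TPM in replicates 1 and 2. Those with the distal last exon, Srsf10-203 and Srsf10-205, held 37.7% ± 3.53 of the coding TPM of the gene (SD, n = 2).

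Coding transcripts of Srsf10 and Srsf5 also differ by 3 bases at a splice acceptor, which adds 1 codon. The runs below cross the exon junction, with the 3 extra bases in capitals, at chr4:135863523-135863525 for Srsf10 and chr12:80949717-80949719 for Srsf5 (both plus strand). They are shown because the use of these acceptors was nearly the same in both libraries.
Srsf10-204: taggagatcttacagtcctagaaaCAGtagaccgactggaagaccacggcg
Srsf10-202: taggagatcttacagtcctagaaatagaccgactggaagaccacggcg
Srsf5-202: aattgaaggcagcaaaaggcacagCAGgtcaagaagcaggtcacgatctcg
Srsf5-203: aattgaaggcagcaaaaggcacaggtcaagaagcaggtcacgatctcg

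In Srsf10, transcripts with the extra bases held 70.0% of coding TPM in replicate 1 and 70.6% in replicate 2 (70.3% ± 0.409, SD, n = 2). In Srsf5 they held 17.6% and 17.7% (17.7% ± 0.115). By expected counts the shares were 75.3% ± 0.0504 and 17.4% ± 0.104. The longer form was thus the major one in Srsf10 and the minor one in Srsf5. The gene levels differed more between the libraries than these shares did, by 1.48-fold for Srsf10 and 1.21-fold for Srsf5. How reads over the 3 bases were assigned was not tested.

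Between the libraries, 0 of 66 member transcripts moved by 10 percentage points of their gene, against 2.73% of 16858 transcripts of genes with a mean of at least 10 TPM. With 66 transcripts this is near the background. The largest moves were those of Srsf2-204 (-9.07 points), Srsf10-207 (8.67), Srsf10-209 (-8.20), Srsf2-206 (8.14) and Srsf6-203 (-6.97). At 5 points, 8 member transcripts moved, against 10% of the 16858, also near the background. In TPM, the bounds of 15 of 24 coding transcripts did not overlap and were lower in replicate 2, against 19.4% of the coding transcripts among the 16858. The same held for 3 of 12 decay transcripts (background 6.54%), 5 of 18 retained intron transcripts (9.53%) and 1 of 12 other noncoding transcripts (6.3%). Of the 67 transcripts, 34 held at least 5% of their gene in both libraries, and 5 were at 0 TPM in both.

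**Figure D5:**
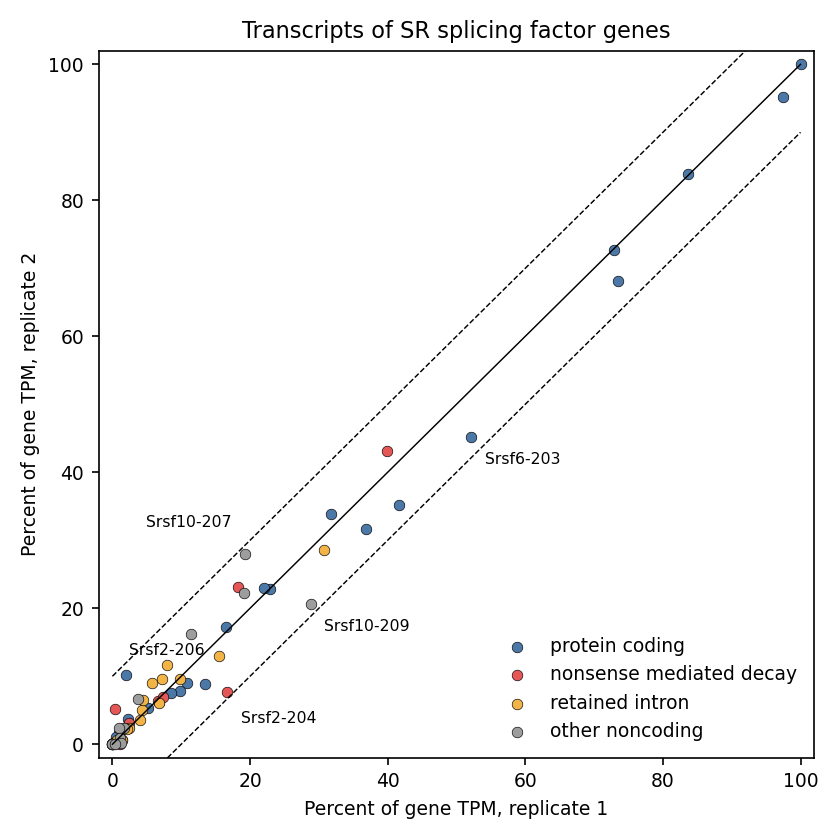
Percent of its gene's TPM held by each transcript of the SR splicing factor genes, replicate 2 against replicate 1, coloured by transcript type; the solid line marks equal shares and the dashed lines a difference of 10 points. All points lie between the dashed lines, and the named transcripts are 5 with large moves, Srsf2-204 at -9.07 points among them.

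Other splicing genes were set beside the family as lists chosen by function. The list of SR-related proteins held 24 genes for proteins with arginine and serine repeats, among them Tra2a, Tra2b and Srsf12, which also have an RNA recognition motif. All but Srsf12, at 0 TPM in both libraries, reached 1 TPM in both. Of these 23, 0 were past 1.5-fold higher and 1 was lower, Bclaf1 at 31.4 and 20.5 TPM. The highest of them were U2af2, the large U2AF subunit, at 86.4 and 70.6 TPM, Tra2b, an exonic enhancer binder, at 72.2 and 50.2 TPM, and Rbm39 at 56.3 and 51.1 TPM. Their median log2 ratio was -0.27, with 20 of 23 lower in replicate 2. Of 23 hnRNP and PTB proteins, which often act against SR proteins at exons, all 23 were detected, 0 were higher and 1, Hnrnpd at 7.03 and 4.67 TPM, was lower past 1.5-fold. Their median was -0.26, with 19 of 23 lower. Hnrnpab at 297 and 215 TPM, Hnrnpf at 197 and 142, and Hnrnpk at 164 and 143 led that list, and all 3 stood above Srsf1 in both libraries.

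The enzymes that modify or import SR proteins were nearer to equal. Of 10 SR protein kinases and import factors, all 10 were detected and 0 were past 1.5-fold, with a median log2 ratio of -0.03 and 6 of 10 lower. Clk1, a kinase of SR proteins in the nucleus, had 21.6 and 25.6 TPM, Clk4 had 16.9 and 17.3, and Srpk1, a cytoplasmic SR protein kinase, had 18.3 and 14.9. Of 16 factors of nonsense-mediated decay and the exon junction complex, all 16 were detected and 0 were past 1.5-fold, with a median of -0.11 and 13 of 16 lower. Eif4a3 and Magoh, both of the exon junction complex, had 124 and 94.3 TPM and 48.4 and 39.5 TPM, and Smg5, a decay factor, had 15.0 and 12.8.

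The libraries differed by more than counting error, with a chi-square of 172 per degree of freedom over 15438 genes, so they were not 1 library deposited again. Protein-coding genes held 24.4% and 24.3% of TPM, and rescaled to the protein-coding sum the mean family level would be 2129 TPM in place of 518. All 7 B cell markers were at 1 TPM or more in both libraries, from Pax5 at 6.09 and 6.99 TPM to Cd79b at 121 and 125, and Ebf1 was past 1.5-fold higher in replicate 2 (6.18 and 9.44 TPM). Of 12 markers of T cells, myeloid cells, erythroid cells and stroma, 9 were under 0.1 TPM in both libraries and only Cd3g, at 2.69 and 3.04 TPM, reached 1 TPM in both. Their summed level was 3.70 TPM in replicate 1 and 4.69 in replicate 2. Whether counting used strand is not stated. Srsf2 overlaps Mettl23, at 14.6 and 15.5 TPM, and Mfsd11, at 3.85 and 3.16 TPM, on the opposite strand. Srsf4 overlaps Gm12992, at 1.25 and 1.04 TPM, also on the opposite strand. On the same strand, Srsf4 overlaps A930004J17Rik, at 0.78 and 0.59 TPM, and Srsf11 overlaps Gm43362, which has no value here. The gene counts of Srsf3, Srsf5 and Srsf10 were not whole numbers, so some of their reads were shared with other rows.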

How the data were processed

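Each library had deposited gene tables for annotations M2, M3 and M4 and a transcript table for M4 on mm10. Which aligner and quantifier were used is not given in the sources used here. Per the file headers, the deposited columns hold expected counts (estimated reads per gene or transcript), TPM and FPKM as normalized levels, the percent of a gene held by each transcript, and credibility bounds of TPM. Replicate 1 held 49278383 expected counts and replicate 2 held 55950529. Rows with no Ensembl identifier (26345 of 69691) held 5.68e-05% and 5.36e-05% of counts and were left out.

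Symbols, transcript types, structures and sequences came from GENCODE M21, which held 42462 of the 43346 genes and all 67 member transcripts, 58 of them with the deposited length. The types are those of M21, not of M4. Srsf3-201, Srsf3-202, Srsf3-205, Srsf11-202 and Srsf11-207 are among the 9 with another length. Some differences are large: Srsf3-201 has 1919 bases as deposited and 2594 in M21, Srsf3-205 has 910 and 2110, and Srsf11-207 has 813 and 1670. Srsf3-202 has 2566 and 2618, and Srsf11-202 has 2614 and 2654. The exon structures shown are those of M21, while the levels rest on the deposited lengths. Expected counts were rounded and scaled by TMM in edgeR 4.0.16 (R 4.3.3) over genes with at least 10 summed counts. With 1 library a side no test was made: a gene was called past 1.5-fold at a mean of at least 1 TPM, and a transcript past 10 points at a mean of at least 10 TPM for its gene. The gene calls were tested on simulated counts that held counting error only, so the larger spread between the real libraries was not part of that test. DESeq2 1.42.0 size factors were an alternative for the deposited counts. Other steps used Python 3.11.15, numpy 2.4.6, pandas 2.3.3 and matplotlib 3.10.9.

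All 10 members were named. So were their transcripts with at least 5% of the gene in both libraries, the decay or retained intron transcript of highest TPM of each, and from other lists the 3 highest genes and those past 1.5-fold. Other transcripts and genes were chosen after their values were seen. Members and lists were chosen with earlier results of these data known.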

Additional observations from a re-analysis of the deposited data

How the results depend on the processing

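With 2 libraries of 1 group, nothing beyond the spread between them can be assessed, and low transcripts rest on few assigned reads. All 10 members were lower in replicate 2 with TMM or DESeq2 scaling, with both TPM pseudocounts and with annotations M2 and M3. The filters and the 2-fold threshold cannot alter this, since every member had a mean above 10 TPM. The mean summed level of the family was 518 TPM, 2129 TPM on a protein-coding scale and 1144 in FPKM, both by the scale itself, and 431 to 606 TPM with 1 library left out. The median coding share of 62.2% of TPM was 80.8% by expected counts, and 62.1% to 62.9% with 1 library left out. The number of members past 1.5-fold, 2, was 1 on TPM with a pseudocount of 0.1, 1 with a pseudocount of 1 and 0 at a 2-fold threshold. Srsf6 then read -0.58 and -0.57 on the log2 scale with the pseudocounts of 0.1 and 1. The number of transcripts that moved by 10 points, 0, was 8 at 5 points. Of the 73 genes of the other splicing lists, 72 reached 1 TPM in both libraries and 44 reached 10 TPM. No paired analysis was possible because the libraries form 1 group.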
